A study of Mus musculus with 8 samples.

Results

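The genes described here are 10 mouse genes of antigen presentation by major histocompatibility complex (MHC) class II, chosen by name: H2-Aa, H2-Ab1, H2-Eb1, H2-Eb2, H2-DMa, H2-DMb2, H2-Oa, H2-Ob, Cd74 and Ciita. A gene was read from the array row (probeset) whose annotation names it alone, and 9 of the 10 genes had such a row, out of 19752 genes in all. H2-DMb2 had no row of its own, since its only row also names its neighbour H2-DMb1, and it is given no value. All 9 passed a filter that left out the dimmest rows, with 15007 genes tested in total.

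The samples were whole tibialis anterior muscle, a muscle of the lower leg, taken on day 8 after a freezing injury from male C57BL/6 mice aged 10 weeks. The group called ST2 flox had the genotype ST2 FL/Foxp3-Cre (4 samples), and the group called ST2 WT had the genotype ST2 WT/Foxp3-Cre (4 samples), so that both groups carried Foxp3-Cre. ST2 is the receptor of interleukin-33, a cytokine released by damaged tissue. Foxp3-Cre acts in regulatory T cells, which are few in whole muscle and are not the cells that chiefly carry class II. RNA of each sample was hybridised to 1 Affymetrix Mouse Gene ST array, and levels are log2 of the deposited intensities. Nothing in the labels ties each sample to its own animal, so the p-values reflect how far these samples scatter, and that scatter may be technical. The floxed gene itself is not analysed here.

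MHC class II molecules carry peptides from engulfed proteins to the cell surface, where CD4 T cells read them. The α and β chains pair in the endoplasmic reticulum with the invariant chain Cd74, which fills the peptide groove. Proteases later trim Cd74 to a short remnant, H2-M (from H2-DMa and an H2-DMb chain) swaps that remnant for a peptide, and H2-O (from H2-Oa and H2-Ob) restrains H2-M. Ciita is the coactivator that switches the whole gene set on. In injured muscle, macrophages and dendritic cells are the main carriers of class II, and interferon-gamma from lymphocytes is a known inducer of Ciita. C57BL/6 mice do not transcribe H2-Ea, the partner of the H2-Eb1 chain, and so lack the H2-E molecule while still transcribing H2-Eb1.

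Class II promoters are known for a pair of elements read by Ciita's partners: an X box, bound by the RFX complex, and a Y box, an inverted CCAAT sequence bound by NF-Y. Promoter windows from RefSeq (build GRCm38.p6, 250 bases before to 50 after a gene's start) were matched by symbol for 7 of the 10 genes, with 8 windows, while H2-Ab1, Cd74 and Ciita are named only. The letters GCAAC (part of an X box) and TGATTGG (the Y box) were searched, and the letters were chosen with these windows in view. GCAAC followed on the same strand by TGATTGG, with at most 40 bases between them, was found in 5 of the 7 genes. It was found on either strand in 0.353% of all 32851 windows. TGATTGG alone, on either strand, lay in 7.82% of all windows, and GCAAC alone in 35.2%. The stretches around the pair are shown because they are what the 5 genes share outside the array values. They are written 5′ to 3′ along the gene's own strand, with the searched letters in capitals.
H2-Eb1: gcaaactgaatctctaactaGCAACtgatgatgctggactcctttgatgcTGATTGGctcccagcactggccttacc
H2-Eb2: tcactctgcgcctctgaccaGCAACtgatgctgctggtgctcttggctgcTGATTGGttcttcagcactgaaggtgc
H2-Aa: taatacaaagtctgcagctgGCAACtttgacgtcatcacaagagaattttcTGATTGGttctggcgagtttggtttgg
H2-Oa: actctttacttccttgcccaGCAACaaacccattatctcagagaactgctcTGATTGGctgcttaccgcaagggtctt
H2-Ob: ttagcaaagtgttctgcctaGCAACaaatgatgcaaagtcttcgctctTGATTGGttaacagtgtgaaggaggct

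These stretches lie at chr17:34305756-34305832 (plus strand) for H2-Eb1, chr17:34325523-34325599 (plus) for H2-Eb2 and chr17:34287847-34287924 (minus) for H2-Aa. Those of H2-Oa and H2-Ob lie at chr17:34092283-34092360 (plus) and chr17:34238798-34238872 (plus). Between the 2 motifs stood 25 bases in H2-Eb1 and in H2-Eb2, 26 in H2-Aa and in H2-Oa, and 23 in H2-Ob. The Y box began 45 to 102 bases before the annotated start of the gene, nearest in H2-Oa and farthest in H2-Eb2. The H2-DMb2 window held TGATTGG without GCAAC, 1 of the 2 H2-DMa windows held GCAAC without TGATTGG, and the other held neither. A match is a description of letters, not a bound site. Of 62 other tested genes with the same pair in a window, 28 were higher in ST2 flox and 34 lower, with a median difference of -0.0098 log2.

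Before the comparison, the arrays need a description. Median intensity lay between 186 and 189 on the ST2 flox arrays and between 185 and 188 on the ST2 WT arrays. The spread of intensities differed more: the log2 lower quartile was 6.23, 6.29, 6.33 and 6.43 on ST2 flox arrays 1 to 4, against 6.35 to 6.39 on the ST2 WT arrays. The log2 upper quartile was 8.92, 8.89, 8.86 and 8.77 on ST2 flox arrays 1 to 4 and 8.81 to 8.85 on the ST2 WT arrays. ST2 flox array 4 thus had the narrowest distribution of the 8 and ST2 flox array 1 the widest. ST2 flox array 4 also had the lowest macrophage and interferon-gamma list means of the 8 arrays. Most class II differences and several list medians are therefore also given without it. Differences of single genes outside the class II set are given with it only. Muscle identity was clear, with log2 levels of 13.6 to 13.7 for Ckm, the muscle creatine kinase, in both groups.

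All 9 class II genes had a higher mean in ST2 flox muscle than in ST2 WT muscle, by 0.06 to 0.32 log2, and 0 of the 9 passed the threshold of 0.05 after adjustment over all genes (limma; the smallest adjusted p was 0.912). No gene of the array passed either (0% of 15007), and 48.8% of all genes had a higher mean in ST2 flox. The median difference of the 9 was 0.24 log2, beside -0.0025 over all genes tested. At an unadjusted limma p under 0.05 stood 3 of the 9, H2-Eb1, H2-Eb2 and Ciita, all higher, where 2.03% of all genes were higher at that p. The groups did not overlap for 2 of the 9, H2-Eb2 and Ciita, against 1.14% of all genes with every ST2 flox array above every ST2 WT array. The genes share regulators and cells, so they are not independent of each other, and these counts carry no test of the set. In whole muscle, more cells that carry class II and more class II RNA per cell cannot be told apart.

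**Figure D1:**
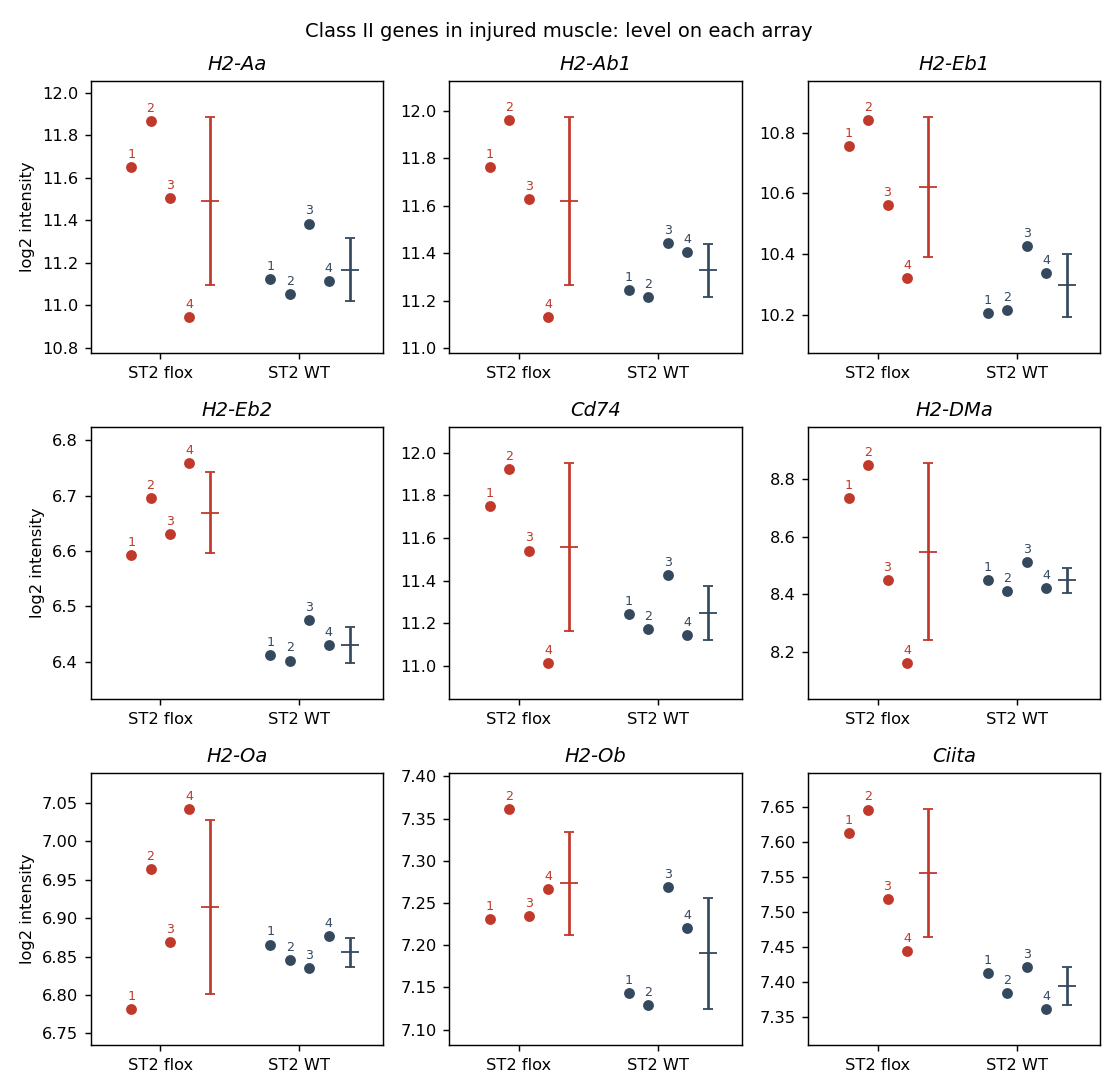
Log2 intensity of each of the 9 class II genes on each array, 1 panel per gene with its own axis. Points are arrays with their sample number, ST2 flox left and ST2 WT right, and the bar beside each group is the mean with its SD (n = 4). H2-Eb2 and Ciita do not overlap between groups, while H2-Aa, H2-Ab1, Cd74 and H2-DMa have ST2 flox array 4 below every ST2 WT array.

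The chains of H2-A, the only classical class II molecule made in these mice, behaved alike. H2-Aa (probeset 10450154), the α chain, had log2 levels of 11.65, 11.87, 11.50 and 10.94 on ST2 flox arrays 1 to 4, against 11.12, 11.05, 11.39 and 11.11 on ST2 WT arrays 1 to 4. ST2 flox arrays 1 to 3 were above every ST2 WT array, and ST2 flox array 4 was below them all. The means were 11.49 ± 0.39 in ST2 flox and 11.17 ± 0.15 in ST2 WT (SD, n = 4 each), a difference of 0.32 (SE 0.17), or 1.25-fold, with a 95% interval of 0.967-fold to 1.62-fold. H2-Ab1 (probeset 10444291), the β chain, had 11.76, 11.96, 11.63 and 11.13 on ST2 flox arrays 1 to 4, against 11.25, 11.22, 11.44 and 11.40 on ST2 WT arrays 1 to 4. Its difference was 0.29 (SE 0.15), again with 3 ST2 flox arrays above and 1 below all ST2 WT arrays. For both chains the 95% interval took in 0 on the log2 scale. Each difference was below the SD of the ST2 flox arrays (0.39 for H2-Aa and 0.35 for H2-Ab1). It was above the SD of the ST2 WT arrays (0.15 and 0.11). Without ST2 flox array 4 the differences were 0.51 (SE 0.10) for H2-Aa and 0.46 (SE 0.09) for H2-Ab1, with limma adjusted p of 0.125 and 0.122. Without ST2 flox array 2 they were 0.20 (SE 0.16) and 0.18 (SE 0.14).

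Cd74 (probeset 10456005), the invariant chain, followed H2-Aa closely. Its log2 levels were 11.75, 11.92, 11.54 and 11.01 on ST2 flox arrays 1 to 4, against 11.24, 11.17, 11.43 and 11.15 on ST2 WT arrays 1 to 4. Here too ST2 flox arrays 1 to 3 stood above the ST2 WT arrays and array 4 stood below them. The difference was 0.31 (SE 0.17), with a 95% interval of -0.06 to 0.68, and it was 0.49 (SE 0.10) without ST2 flox array 4 and 0.19 (SE 0.16) without ST2 flox array 2.

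H2-Eb1 (probeset 10444298), a β chain with no partner in this strain, was the most separated of the bright genes. Its levels were 10.76, 10.84, 10.56 and 10.32 on ST2 flox arrays 1 to 4, against 10.21, 10.21, 10.43 and 10.34 on ST2 WT arrays 1 to 4. ST2 flox array 4 lay within the ST2 WT range, and the other ST2 flox arrays lay above it. The means were 10.62 ± 0.23 in ST2 flox and 10.30 ± 0.10 in ST2 WT (SD, n = 4 each). The difference was 0.32 (SE 0.11), or 1.25-fold, with a 95% interval of 1.06-fold to 1.48-fold, and it stood at an adjusted p of 0.912 over all genes. It was 0.42 (SE 0.08) without ST2 flox array 4 and 0.25 (SE 0.10) without ST2 flox array 2. H2-Ea (not a member), whose product would pair with it, had levels of 5.73 to 5.84 in ST2 flox and 5.80 to 5.86 in ST2 WT, below the filter at 6.35.

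H2-Eb2 (probeset 10444306), a paralogue next to H2-Eb1 on the chromosome, had the smallest p of the class II genes and ranked 4 among all 15007. Its levels were 6.59, 6.70, 6.63 and 6.76 on ST2 flox arrays 1 to 4, against 6.41, 6.40, 6.48 and 6.43 on ST2 WT arrays 1 to 4. All 4 ST2 flox arrays were above all ST2 WT arrays, and ST2 flox array 4, the lowest for the H2-A chains and Cd74, was the highest. The means were 6.67 ± 0.07 in ST2 flox and 6.43 ± 0.03 in ST2 WT (SD, n = 4 each), a difference of 0.24 (SE 0.06), or 1.18-fold, with a 95% interval of 1.08-fold to 1.29-fold. The unadjusted limma p was 0.00155 and the adjusted p 0.912. The difference changed little without ST2 flox array 4 (0.21, SE 0.05) or array 2 (0.23, SE 0.06), and its direction held without any single array. H2-Eb2 is a dim row, at the 28.9th percentile of all row means where the filter stood at the 25th, and dim rows as a class also differed between these arrays, as the lower quartiles show. After quantile normalization, which makes those quartiles equal, the ST2 flox arrays 1 to 4 read 6.70, 6.74, 6.65 and 6.68, against 6.36, 6.37, 6.48 and 6.41 on the ST2 WT arrays. The groups were apart with a difference of 0.29 (SE 0.05, unadjusted limma p 1.87e-04), and ST2 flox array 4 was no longer the highest.

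**Figure D2:**
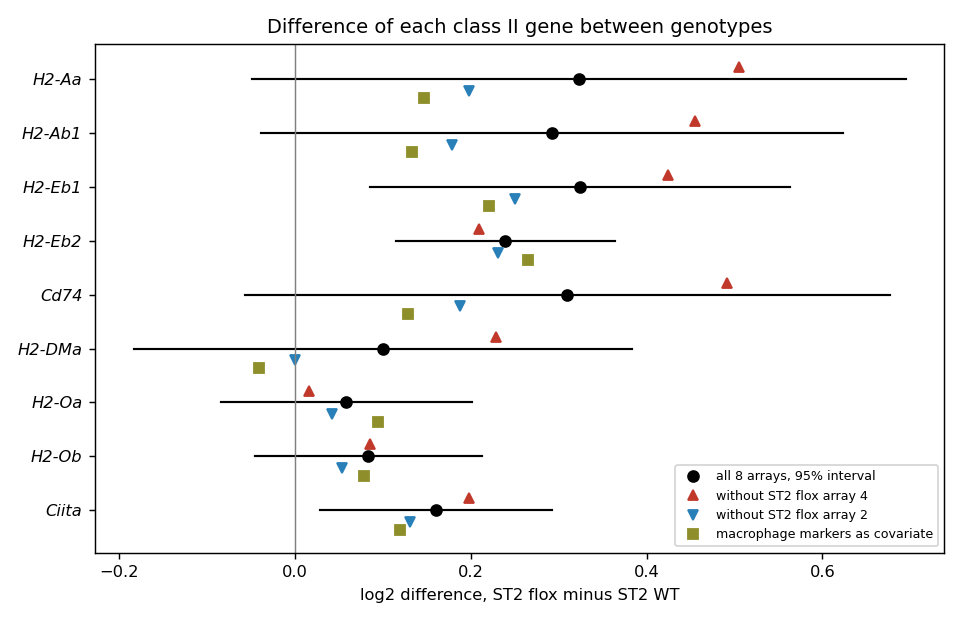
Log2 difference, ST2 flox minus ST2 WT, of the 9 class II genes. Black points are all 8 arrays with limma's 95% interval, triangles leave out ST2 flox array 4 (up) or array 2 (down), and squares add the macrophage marker mean as a covariate. The intervals of H2-Eb1, H2-Eb2 and Ciita lie above 0. Leaving out array 4 moves H2-Aa, H2-Ab1 and Cd74 up, while H2-Eb2 stays between 0.21 and 0.27 in all of the settings drawn.

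The peptide exchange genes differed less. H2-DMa (probeset 10444229), the α chain of H2-M, had levels of 8.74, 8.85, 8.45 and 8.16 on ST2 flox arrays 1 to 4, against 8.45, 8.41, 8.51 and 8.42 on ST2 WT arrays 1 to 4. ST2 flox arrays 1 and 2 were above and array 4 was below every ST2 WT array, and the difference was 0.10 (SE 0.13). The SD was 0.31 in ST2 flox and 0.04 in ST2 WT. Its difference was -7.8e-05 without ST2 flox array 2 and 0.23 (SE 0.09) without ST2 flox array 4, and it was 0.04 without ST2 flox array 1. The difference was thus below its SE with all arrays, and leaving out any of these arrays moved it.

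H2-Oa and H2-Ob, the chains of the H2-M inhibitor H2-O, which is known chiefly from B cells, showed the smallest differences. H2-Oa (probeset 10444223) had 6.78, 6.96, 6.87 and 7.04 on ST2 flox arrays 1 to 4, against 6.87, 6.85, 6.84 and 6.88 on ST2 WT arrays 1 to 4. The groups overlapped, with ST2 flox array 1 lowest and array 4 highest, as these arrays also were in the lower quartile of all intensities. The difference was 0.06 (SE 0.06), and it was 0.02 without ST2 flox array 4 and 0.10 without array 1. After quantile normalization it was 0.10 (SE 0.05) and the groups no longer overlapped, with the lowest ST2 flox array at 6.87 and the highest ST2 WT array at 6.86. H2-Ob (probeset 10444284) had 7.23, 7.36, 7.23 and 7.27 on ST2 flox arrays 1 to 4, against 7.14, 7.13, 7.27 and 7.22 on ST2 WT arrays 1 to 4. The groups overlapped, at a difference of 0.08 (SE 0.06, 95% interval -0.05 to 0.21), which was 0.05 without ST2 flox array 2.

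Ciita (probeset 10433507), the coactivator of the set, was higher on every ST2 flox array than on any ST2 WT array in the values as deposited. Its levels were 7.61, 7.65, 7.52 and 7.44 on ST2 flox arrays 1 to 4, against 7.41, 7.38, 7.42 and 7.36 on ST2 WT arrays 1 to 4. ST2 flox array 4 cleared the highest ST2 WT array only narrowly, and after quantile normalization it fell inside the ST2 WT range, at 7.41 against 7.35 to 7.43. The difference was 0.16 (SE 0.06), or 1.12-fold, with a 95% interval of 1.02-fold to 1.23-fold, an unadjusted limma p of 0.0216 and an adjusted p of 0.912. It was 0.13 (SE 0.06) without ST2 flox array 2 and 0.20 (SE 0.06) without array 4. The unadjusted limma p rose above 0.05 without ST2 flox array 1 (0.0520), ST2 flox array 2 (0.0655) or ST2 WT array 4 (0.0539). The Ciita row stood at the 48.5th percentile of all row means.

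Spread was wider in ST2 flox muscle for 8 of the 9 genes, H2-Ob being the exception, and for 66.1% of all genes tested. Averaged over the 9 genes, after each was centred on its own mean, the log2 values were 0.17, 0.31, 0.07 and -0.14 on ST2 flox arrays 1 to 4, against -0.13, -0.16, -0.01 and -0.11 on ST2 WT arrays 1 to 4. ST2 flox arrays 1 to 3 were above every ST2 WT array, and array 4 was inside the ST2 WT range. The group means of this average differed by 0.21, and by 0.14 to 0.29 without each array in turn, the lowest without ST2 flox array 2 and the highest without ST2 flox array 4. Without ST2 flox array 4, 7 of the 9 genes stood at an unadjusted limma p under 0.05 (higher), where 10.6% of all genes did, and without ST2 flox array 2 it was 2 of 9, where 0.96% did. In both fits 0 of the 9 passed the adjusted threshold, which 0.0133% of all genes passed without ST2 flox array 4 and 0% without array 2. The smallest adjusted p of a class II gene was 0.122 without ST2 flox array 4. With arrays weighted by their estimated quality, 6 of the 9 stood at an unadjusted limma p under 0.05 (higher), where 6.75% of all genes did, and 0 passed the adjusted threshold.

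**Figure D3:**
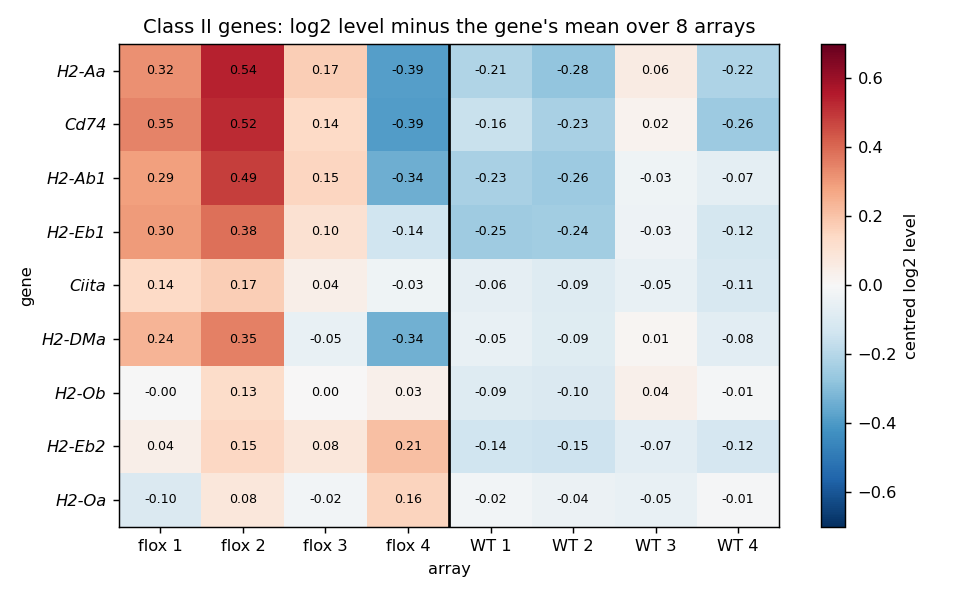
Log2 level of each class II gene on each array minus that gene's mean over the 8 arrays, with the value printed in each cell. Red is above and blue below the gene's mean, and the black line divides ST2 flox (left) from ST2 WT (right). On ST2 flox array 4 H2-Aa, Cd74, H2-Ab1 and H2-DMa are at -0.34 to -0.39, while H2-Eb2 and H2-Oa are at 0.21 and 0.16.

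The 9 genes fell along a gradient of likeness over the 8 arrays, given here as a description. The arrays are shared by all genes, and so are their groups and intensity distributions. Over the 36 pairs, Pearson's r had a median of 0.66 and ran from -0.37 (H2-DMa with H2-Oa) to 0.99 (H2-Aa with Cd74). H2-Aa with H2-Ab1 had an r of 0.98 and H2-Eb1 with Ciita one of 0.94. H2-Eb1 and H2-Eb2, whose promoter stretches above share the spacing of the motifs, had an r of 0.58. H2-Aa and H2-Oa, whose stretches also share a spacing, had an r of -0.22. With the group means removed, the median over the pairs was 0.53.

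Among genes outside the set, those most like the mean of the 9 over the 8 arrays were Slc7a7, an amino acid transporter subunit (r = 0.991), Lilra6, Cd14, the endotoxin coreceptor of macrophages (r = 0.982), Septin6, Cyria, Scyl2, Rac2, a GTPase of blood cells, and Casp2. Their r was 0.977 to 0.991, and the 8 were the highest of 15007 genes less the members, so values near 1 are a product of that choice. Cd14 differed by 0.24 (SE 0.09) and Rac2 by 0.23 (SE 0.09), each with a limma adjusted p of 0.912. Nearest to H2-Eb1 were Dpm2, Slc7a7, Btd, Cd14 and Rac2. Nearest to H2-Ab1 were B3glct, Slc36a1, Septin6, Scyl2 and Myo1d. Nearest to Ciita were Pcdh18, Rac2, Slc43a2, Cav2 and Lrrc25.

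The factors that bind class II promoters with Ciita did not show a common direction. Of 10 such genes tested, 7 were higher and 3 lower in ST2 flox, with a median difference of 0.0034 log2 that ran from -0.03 to 0.03 without each array in turn and was -0.02 after quantile normalization, with 0 at an adjusted and 0 at an unadjusted p under 0.05. Rfx5, the DNA-binding subunit of RFX, differed by 0.0036 (SE 0.09), Rfxank by 0.04 (SE 0.05) and Rfxap by -0.06 (SE 0.06). The NF-Y subunits Nfyb and Nfyc differed by -0.06 (SE 0.07) and 0.0032 (SE 0.07). Nfya, the subunit that reads CCAAT, was the exception in having no overlap, where 1.14% of all genes had every ST2 flox array above every ST2 WT array. Nfya had 8.79, 8.75, 8.64 and 8.65 on ST2 flox arrays 1 to 4, against 8.58, 8.62, 8.59 and 8.57 on ST2 WT arrays 1 to 4. The gap was narrow, with the lowest ST2 flox array at 8.64 and the highest ST2 WT array at 8.62. The difference was 0.12 (SE 0.06, limma adjusted p 0.912). Creb1, Crebbp, Rfx1 and Kat2b differed by -0.08 to 0.02.

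The genes that prepare peptides and trim Cd74 all had a higher mean in ST2 flox, with 8 of 8 higher, a median of 0.09 (0.15 without ST2 flox array 4) and 0 at an unadjusted p under 0.05. Ctss, the cathepsin that makes the last cut in Cd74 in dendritic cells and B cells, differed by 0.25 (SE 0.11), and Ifi30, a reductase that opens disulphide bonds in antigens, by 0.26 (SE 0.13). Lgmn, Ctsb, Ctsl, Cd63, Sppl2a and Ctsd differed by 0.16, 0.10, 0.09, 0.07, 0.05 and 0.0053. Of the 5 tested genes that set class II turnover, 4 were higher, with a median of 0.10 (0.16 without ST2 flox array 4). Marchf1, the ligase that marks class II for removal, differed by 0.10 (SE 0.07). Cd83, which opposes it, differed by 0.25 (SE 0.09), with 7.83, 7.92, 8.07 and 7.82 on ST2 flox arrays 1 to 4 and 7.49 to 7.88 on the ST2 WT arrays. Il10ra, a chain of the receptor for interleukin-10, differed by 0.31 (SE 0.11), and Marchf8 by 0.10 (SE 0.07).

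The interferon-gamma pathway, which induces Ciita, gave a median difference of 0.03 over 16 tested genes, 12 higher and 4 lower, with 0 at an unadjusted p under 0.05. Ifng itself had 6.52 to 7.01 in ST2 flox and 6.71 to 6.78 in ST2 WT, a difference of 0.0030 (SE 0.10). Its response genes Irf1 and Cxcl9 differed by 0.17 (SE 0.10) and 0.37 (SE 0.25), and Ifngr1, a chain of its receptor, by 0.14 (SE 0.09). They had the smallest p of the list. Among other response genes, Cxcl10, Gbp7 and Irgm1 differed by 0.11, 0.10 and 0.09, Iigp1 and Gbp3 by 0.03 and Gbp5 by -0.02. The list means were 0.03, 0.20, 0.15 and -0.26 on ST2 flox arrays 1 to 4, against -0.13 to 0.10 on the ST2 WT arrays. The median of this list was small beside its movement between arrays. It was -0.01 without ST2 flox array 3, 0.0058 without array 2, 0.05 without array 1 and 0.16 without array 4, and among the fits without an ST2 WT array it was 0.01 without array 1, 0.06 without array 2 and 0.04 without array 4. With array weights it was 0.17. Of 21 genes listed for class I presentation, which shares interferon as an inducer, 17 were tested. H2-K1, H2-D1, H2-Q7 and H2-T23 had no row of their own. Of the 17, 16 were higher, with a median of 0.10 (0.05 without ST2 flox array 2 and 0.16 without array 4). The immunoproteasome subunit Psmb10 (0.20, SE 0.08), the class I heavy chain H2-Q4 (0.29, SE 0.13) and Tapbpl (0.11, SE 0.06) led the list. The 1 lower gene was Nlrc5 (-0.12, SE 0.08). The costimulatory list held 10 genes, among them Cd274 and Pdcd1lg2, ligands of the inhibitory receptor PD-1. Cd274 also counts among the interferon-gamma genes. Of the 10, 6 passed the filter, and 5 of these, Cd274 included, were higher, with a median of 0.14. The median was 0.06 without ST2 flox array 1, 0.08 without array 2 and 0.28 without array 4, and 0.04 over all 10 genes with no filter, since 3 of the 4 dim genes were lower. The list was led by Cd48 (0.33, SE 0.15), Cd80 (0.32, SE 0.18) and Cd86 (0.24, SE 0.20).

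Among the ST2 flox arrays, arrays 1 and 2 were the highest and array 4 the lowest for the class II genes and for the macrophage, dendritic cell, B cell and T cell lists, while the ST2 WT arrays did not share an order. ST2 WT array 2 had the highest macrophage mean of its group (0.03) and the lowest class II mean (-0.16), and ST2 WT array 3 had the highest class II mean (-0.01) and the lowest dendritic cell mean (-0.09). Over all 8 arrays, which share their groups and intensity distributions, the r of a list mean with the class II mean was 0.84 for macrophage and 0.84 for dendritic cell markers, 0.87 for B cell, 0.96 for T cell, 0.83 for endothelial and -0.12 for muscle fibre markers. Macrophage marker means were 0.32, 0.37, 0.06 and -0.40 on ST2 flox arrays 1 to 4, against -0.14 to 0.03 on the ST2 WT arrays. Of these markers 21 of 22 were higher in ST2 flox, with a median of 0.19 (0.10 without ST2 flox array 1 or array 2 and 0.35 without array 4). Cd14 and the Fc receptor Fcgr3 (0.39, SE 0.20) had the smallest p. The means of Adgre1, Csf1r and Cd68, which define macrophages, were higher by 0.23 (SE 0.19), 0.10 (SE 0.17) and 0.20 (SE 0.11). With the macrophage mean as a covariate, a setting added after the data were seen, the class II average differed by 0.13 and 8 of 9 genes were still higher. H2-Eb1 then differed by 0.22 (SE 0.07), H2-Eb2 by 0.27 (SE 0.05) and Ciita by 0.12 (SE 0.05), while H2-Aa differed by 0.15 (SE 0.10), Cd74 by 0.13 (SE 0.09) and H2-DMa by -0.04 (SE 0.07). All adjusted p were 1.00 in that fit.

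**Figure D4:**
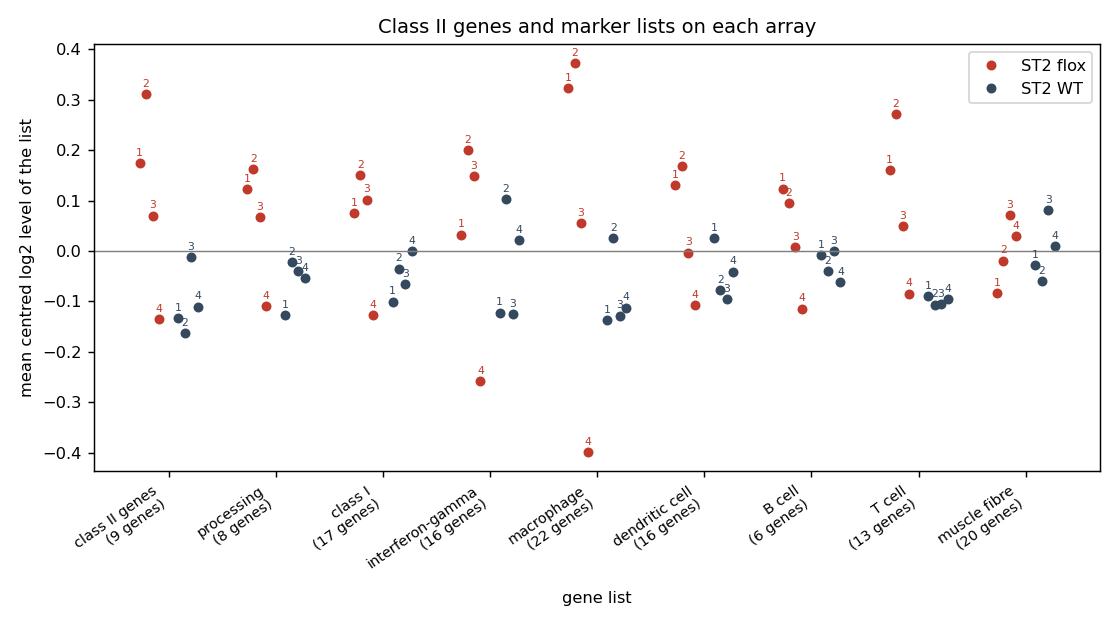
Mean over each gene list of log2 levels centred per gene, on each array (numbered points), ST2 flox left of ST2 WT within each list. The number of tested genes stands under each name. ST2 flox arrays 1 and 2 are the highest and array 4 the lowest of the ST2 flox arrays for the class II genes and for the macrophage, dendritic cell, B cell and T cell lists, while the muscle fibre list does not follow that order.

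Dendritic cell markers had list means of 0.13, 0.17, -0.0033 and -0.11 on ST2 flox arrays 1 to 4, against -0.09 to 0.03 on the ST2 WT arrays, with 12 of 16 higher and a median of 0.07 (0.03 without ST2 flox array 2 and 0.11 without ST2 WT array 1). Fscn1, an actin bundler of mature dendritic cells, differed by 0.27 (SE 0.09), Flt3, the growth factor receptor of their precursors, by 0.24 (SE 0.11) and the integrin Itgax by 0.16 (SE 0.07). These were the 3 markers at an unadjusted limma p under 0.05, where 2.03% of all genes were higher at that p. Of all genes, 48.8% had a higher mean in ST2 flox. Zbtb46, a transcription factor that defines classical dendritic cells, differed by -0.06 (SE 0.07). Of 12 B cell markers 6 were tested, and these 6 were higher, led by Cd79b (0.12, SE 0.08), Blnk (0.09, SE 0.09) and Ebf1 (0.11, SE 0.15). Ebf1 was the brightest of the 6, with means of 9.98 in ST2 flox and 9.87 in ST2 WT. It also varied most among the ST2 flox arrays (SD 0.34), and so weighed most in the list mean there. Whether its RNA came from B cells was not tested. Of the 5 dim markers left out by the filter, 4 were lower, with Cr2 at -0.14 and Cd79a at -0.13. The median was 0.05 over the 6 and 0.0055 over all 11 with no filter. Over the 6 it was 0.02 without ST2 flox array 1, 0.0046 without array 2, 0.10 without array 4 and 0.03 without ST2 WT array 2, with list means of -0.11 to 0.12 in ST2 flox and -0.06 to -0.0010 in ST2 WT. The defining B cell genes Cd79a and Ms4a1 were below the filter on every array, at 5.55 to 5.65 and 5.52 to 5.74 in ST2 flox and 5.50 to 5.99 and 5.48 to 5.61 in ST2 WT. T cell markers were higher for 11 of 13, with a median of 0.14 (0.11 without ST2 flox array 2 and 0.22 without array 4). Their list means were -0.08 to 0.27 in ST2 flox and -0.11 to -0.09 in ST2 WT. Cd3g, Il7r and Cd4 differed by 0.85 (SE 0.28), 0.29 (SE 0.10) and 0.20 (SE 0.08), while Cd3e differed by 0.06 (SE 0.05). Cd3g read 7.63, 7.92, 7.36 and 6.27 on ST2 flox arrays 1 to 4, against 6.32 to 6.60 on the ST2 WT arrays. Its ST2 flox array 4 thus lay below every ST2 WT array. Of the dim T cell markers left out by the filter, Cd3d was lower (-0.10), and Ctla4 (0.08) and Trat1 (0.04) were higher. With no filter the T cell median was 0.13 over 16 genes. Foxp3 differed by -0.0092 (SE 0.08) and Il33 by 0.06 (SE 0.19). Endothelial markers were higher for 8 of 10, with a median of 0.07 (0.03 without ST2 WT array 2 and 0.05 without ST2 flox array 2), led by Cdh5 (0.14, SE 0.07), Esam (0.12, SE 0.07) and Pecam1 (0.12, SE 0.08). Muscle fibre markers were higher for 7 of 20, with a median of -0.0091 that ran from -0.02 to 0.01 without each array in turn. Myh8, Actn3 and Ryr1 differed by 0.10 (SE 0.09), -0.07 (SE 0.06) and -0.06 (SE 0.06). The part of these cell types in the class II difference was not tested. The fit with the macrophage covariate uses RNA of the same arrays and cannot tell cell number from RNA per cell.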

How the data were processed

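The authors deposited a table of intensity values per probeset on a linear scale, ranging from 5.81 to 19080, made with RMA in Affymetrix Power Tools per the submitters' processing notes. No version, genome build or row filter is given in the sources used here. RMA assumes that most genes do not change, and it compresses changes of dim rows. Base 2 logarithms were taken with no pseudocount, per array. Of 24922 rows, 21425 had 1 gene symbol, 1399 several and 2098 none here, and only the first were named. Rows with a mean below the 25th percentile (log2 6.35) were left out, and the brightest row per gene was kept.

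The comparison of genotypes used limma 3.58.1 (R 4.3.3; group alone, all 8 arrays, empirical Bayes, Benjamini-Hochberg over 15007 genes, threshold 0.05), after a test on simulated data. Differences are ST2 flox minus ST2 WT, with limma's standard error. Precision is limited by the number of arrays. The members and lists were chosen with earlier results of these data known, so lists are described by counts and medians with no test. Named were all members, the regulators and processing genes, the 3 members of each other list with the smallest p, fixed markers and the genes nearest in pattern. For same-numbered samples the r of deviations across genes was -0.0017, 0.35, 0.25 and 0.04 for numbers 1 to 4. Differently numbered samples were not compared, so these values cannot settle whether numbers mark pairs. Numbers were not taken as pairs in the main fit. RefSeq tables of GRCm38.p6 gave names and promoter windows. Alternatives were other filters, normalizations, priors, weights, rows per gene, a replicate block, each array left out and a macrophage covariate.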

Additional observations from a re-analysis of the deposited data

Results flagged for a closer look

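Of 44 groups of 4 arrays examined for a lone array (9 class II genes, their mean and 12 list means, in each genotype), 2 were singled out by the gap to the nearest array relative to the range, and chance alone gives about 1 in 20. The mean of the class II turnover genes was -0.0722 on ST2 flox array 4, against 0.11 to 0.14 on the other ST2 flox arrays. The macrophage marker mean was 0.026 on ST2 WT array 2, against -0.14 to -0.11 on the other ST2 WT arrays. None of the 9 class II genes, nor their mean, had such an array in either genotype.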

How the results depend on the processing

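The count of class II genes past the adjusted threshold was 0 of those fitted under every alternative run, and the average class II difference was positive in each, from 0.13 (macrophage covariate) to 0.29 (without ST2 flox replicate 4). The filter at the 50th percentile kept 5 of the 9 genes, with an average of 0.27. Over all genes, the count past the threshold was 0 except without ST2 flox replicate 4, where it was 2, so that leaving out each array gave 0 to 2, and the class II average 0.14 to 0.29. H2-DMa changed sign with the macrophage covariate (-0.042) and without ST2 flox replicate 2, its differences over the arrays left out in turn running from -7.8e-05 to 0.23 (without ST2 flox replicate 4). With array weights the smallest adjusted p of a class II gene was 0.336. The replicate block, with sample number as a block, changed no class II call: the average stayed at 0.21, 0 genes of the 9 and 0 of all genes passed (smallest adjusted p 0.871). List medians moved with the filter: with none, the costimulatory median was 0.04 (0.14 as reported) and the B cell median 0.0055 (0.05). At the 50th percentile, the T cell median was 0.30 over 2 genes (0.14), the dendritic cell median 0.18 over 5 (0.07) and the turnover median 0.18 over 4 (0.10). Array weights gave medians of 0.17 for interferon-gamma genes (0.03), 0.01 for dendritic cell markers and 0.15 for processing genes (0.09). The cause of these changes was not tested. Dim rows (H2-Eb2, H2-Oa) are limited by signal close to the filter on dim rows.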
